A study of Homo sapiens with 5 samples.

Results

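The 10 genes described here are 6 contractile genes (TAGLN, ACTA2, MYL9, CNN1, TPM1 and TPM2), the matrix gene MGP, and the YAP-responsive genes CCN1, CCN2 and ANKRD1. They were taken by symbol from the 36601 genes of the RNA table, and all 10 were present. The set was assembled with RNA results of these nuclei in view, so the RNA levels below are a description and carry no test. Cells of the human lung adenocarcinoma lines H2228, H1975, A549, H838 and HCC827, grown separately and then dissociated and frozen, were mixed, and their nuclei were captured with the 10x Multiome kit, which reads RNA and open chromatin (ATAC) of a nucleus under 1 barcode. The droplets (GEMs) were divided into an 80% and a 20% portion, each with 1 RNA and 1 ATAC library from the same suspension. There were therefore no replicates, and every interval below is a 95% interval for counting error only. The 80% portion held 6557 nuclei with 95455518 RNA UMIs and 63920767 ATAC counts, and the 20% portion held 1286 nuclei with 14346346 UMIs. Of the barcodes, 159 were found in both portions.

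Contractile genes code for actin, for myosin light chains and for proteins that lie along the actin filament. In smooth muscle and in cells under tension many of them are driven by serum response factor (SRF), which binds the CArG box together with the actin-sensing cofactors MRTFA and MRTFB. YAP1 and its paralogue TAZ (gene WWTR1) enter the nucleus when the Hippo kinases are inactive, and they act through TEAD factors on genes such as CCN1 and CCN2. Both programmes are known to respond to cell shape, adhesion and stiffness, also in carcinoma cells.

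Nuclei of the 80% portion were grouped by RNA with the 10 genes and the other listed contractile, SRF, YAP and Hippo genes left out of the variable genes. This gave 5 clusters, numbered 0 to 4, of 2486, 1459, 1449, 835 and 328 nuclei. Cluster 1 was A549-like, with ALDH1A1 at 5363 CPM (counts per 1000000 UMIs of a cluster) against at most 209 elsewhere and AKR1B10 at 4222 against at most 463. Of the 4 A549 markers, only these 2 passed 4-fold. ALDH3A1, at 906 CPM against 653 in cluster 0, and AKR1C1, at 927 against 486, were highest in cluster 1 by ratios of 1.39 and 1.91. Cluster 4 was HCC827-like, with EGFR at 7229 CPM against at most 468 and higher SEC61G, LANCL2 and VOPP1. The other lines had no marker list here, so clusters 0, 2 and 3 are given by number. Cluster 0 was led by NLGN1 and FOXP2, cluster 2 by ZBTB46-AS1 and AL031073.2, and cluster 3 by PLK5 and AC073365.1. After the data had been seen, cluster 3 was also divided by ATAC cluster into group 3a, with 432 nuclei, and group 3b, with 349 nuclei, while 54 nuclei of cluster 3 belonged to neither. Peaks within 100 kb of the 10 genes were left out of the ATAC clusters. Whether 3a and 3b are separate lines or states of a single line was not tested. Each nucleus of the 20% portion was placed in the group of the 80% portion with the closest mean RNA profile by correlation.

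A gene is called restricted below where its highest cluster had at least 10 CPM and at least 4 times the level of the next. Of the 10 genes, 8 reached 10 CPM in some cluster and 1 of these, MGP, was restricted among the 5 clusters, with TAGLN just under the limit at a ratio of 3.98. Over all 12438 genes that reached 10 CPM, 6.45% were restricted. With cluster 3 divided, 2 of the 8 genes, TAGLN and MGP, were restricted, against 5.68% of all genes. At a fold of 2, 3 of the 8 passed among the 5 clusters (MGP, TAGLN and MYL9), against 16.0% of all genes. The remaining genes were therefore shared between groups at unequal levels, and the highest group was not the same from gene to gene. ACTA2 and CNN1 did not reach 10 CPM in any cluster. In the median, the highest cluster of the 8 genes had 1.53 times the level of the next, against 1.26 over all genes tested.

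**Figure D1:**
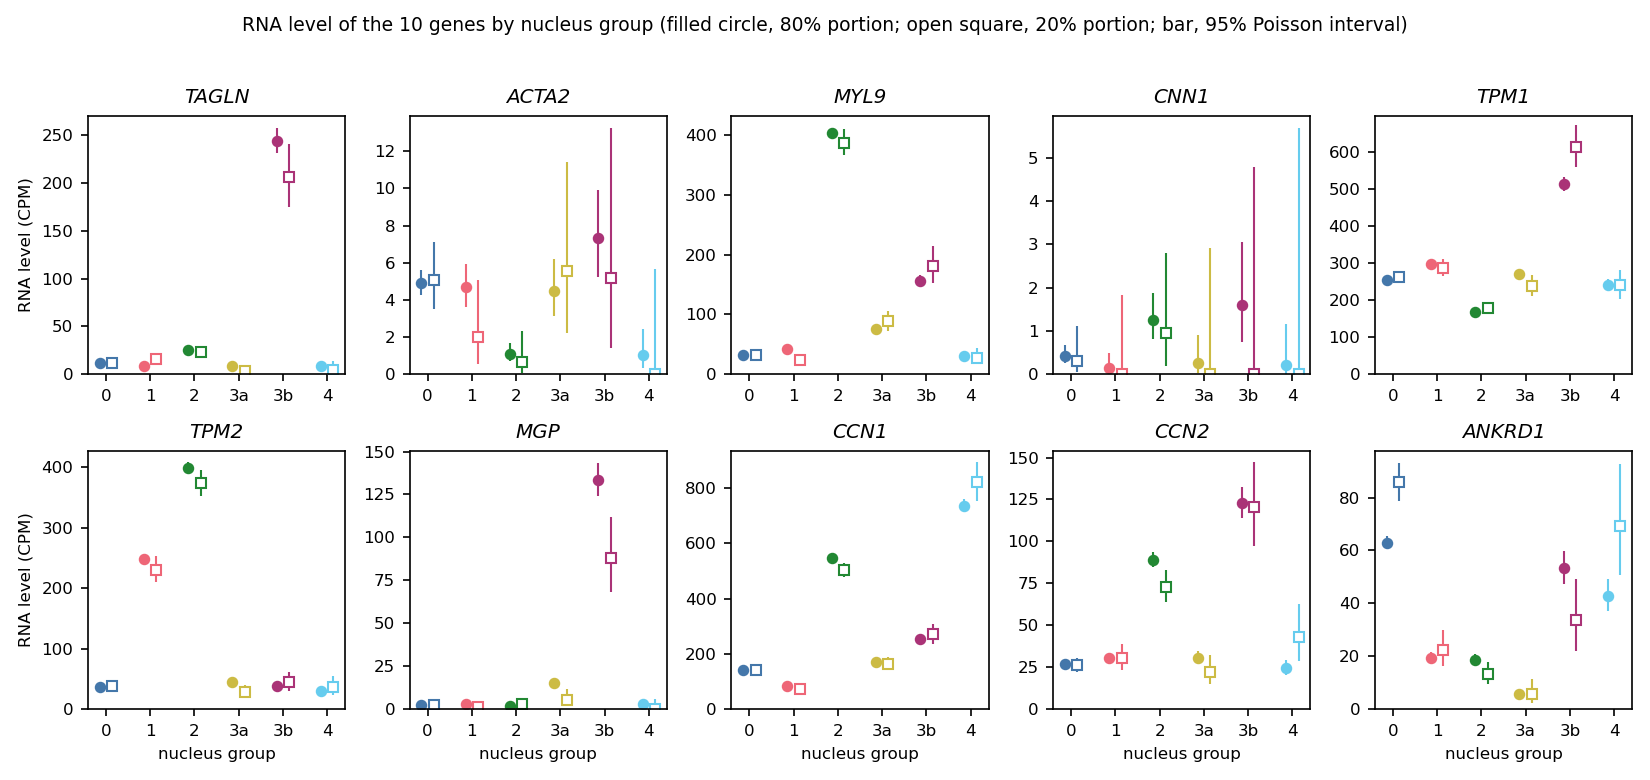
RNA level (CPM, linear axis starting at 0) of each of the 10 genes in the 6 nucleus groups, as filled circles for the 80% portion and open squares for the 20% portion, with bars for the 95% Poisson interval. TAGLN and MGP were highest in group 3b, MYL9 and TPM2 in group 2, CCN1 in group 4 and ANKRD1 in group 0, in both portions.

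TAGLN (ENSG00000149591, chromosome 11) codes for transgelin, an actin-binding protein of smooth muscle that is used as a marker of contractile cells. Its level was 244 CPM (232 to 258) in group 3b, 25.0 CPM in cluster 2, 12.0 CPM in cluster 0, 8.14 CPM in cluster 1, 8.09 CPM in cluster 4 and 7.97 CPM in group 3a. Group 3b thus stood apart from the other 5 groups, while the intervals of clusters 1 and 4 and group 3a overlapped. The 20% portion gave TAGLN at 206 CPM in group 3b and 3.17 CPM in group 3a, where it rested on 4 UMIs. Group 3b made up 5.32% of the nuclei and held 52.4% of all TAGLN UMIs. TAGLN was uneven within it, since the 10% of the nuclei with the most TAGLN held 50% of its UMIs in this group. At least 1 UMI was found in 67.6% of the nuclei of 3b and in 10.9% of those of 3a, at median depths of 14442 and 17002.5 UMIs. At an equal depth of 5000 UMIs, which 1 nucleus of 3a and 0 of 3b did not reach, the shares were 46.9% and 3.44%.

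MYL9 (ENSG00000101335, chromosome 20), the regulatory light chain of smooth muscle and non-muscle myosin, had another pattern. It stood at 403 CPM (394 to 412) in cluster 2, 155 CPM in group 3b, 75.0 CPM in group 3a, 42.2 CPM in cluster 1, 31.4 CPM in cluster 0 and 30.1 CPM in cluster 4. Cluster 2 was 2.60 times group 3b (2.42 to 2.79), and only the intervals of clusters 0 and 4 overlapped. The 20% portion gave 387 CPM in cluster 2 and 181 CPM in group 3b. MYL9 was spread over most nuclei of cluster 2, where 95.7% had a UMI and 80.3% still did after thinning, against 30.2% and 12.0% in cluster 0.

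The tropomyosins, which wind along actin filaments and gate their contact with myosin, differed from each other. TPM2 (ENSG00000198467, chromosome 9) followed MYL9 in its highest cluster, with 399 CPM (390 to 408) in cluster 2. A549-like cluster 1 came next with 248.5 CPM, and the other groups lay between 30.5 and 44.7 CPM. TPM1 (ENSG00000140416, chromosome 15) was lowest in that same cluster 2, at 168 CPM, and highest in group 3b, at 515 CPM (496 to 534). Clusters 0, 1 and 4 and group 3a lay between 242 and 298.5 CPM, so TPM1 was the contractile gene with the smallest range, 3.06 times from the lowest to the highest group. TPM1 was again lowest in cluster 2, at 179 CPM, and highest in 3b, at 616 CPM, in the 20% portion.

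ACTA2 (ENSG00000107796, chromosome 10), smooth muscle alpha-actin, and CNN1 (ENSG00000130176, chromosome 19), calponin, are the more smooth-muscle-restricted genes of the set, and both were scarce. ACTA2 gave 385 UMIs in the whole 80% portion and ranged from 1.04 CPM in cluster 4 to 7.31 CPM (5.25 to 9.92) in group 3b. The intervals of group 3b, at 7.31 CPM, and cluster 0, at 4.91 CPM, overlapped. Clusters 2 and 4, at 1.10 and 1.04 CPM, lay below clusters 0 and 1. CNN1 gave 56 UMIs in 49 nuclei and reached 1.61 CPM (0.734 to 3.05) in group 3b and 1.26 CPM in cluster 2, a difference that was not detectable at this depth. CNN1 had 5 UMIs in the 20% portion, and ACTA2 was at 5.55 CPM in 3a and 5.18 CPM in 3b there.

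The 6 contractile genes summed to 998 CPM (983 to 1012) in cluster 2, 960 CPM (935 to 986) in group 3b, 602 CPM in cluster 1, 405 CPM in group 3a, 340 CPM in cluster 0 and 312 CPM in cluster 4. Cluster 2 and group 3b thus reached sums with overlapping intervals from different genes, MYL9 and TPM2 in cluster 2 and TPM1 and TAGLN in group 3b. In the 20% portion the order was the reverse, with 965 CPM in cluster 2 and 1052 CPM in group 3b, again with overlapping intervals. Without the tropomyosins, the sum was 431 CPM in cluster 2, 408 CPM in group 3b and between 39.4 and 87.7 CPM in the other groups.

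MGP (ENSG00000111341, chromosome 12) codes for matrix Gla protein, a secreted inhibitor of calcification that needs vitamin K-dependent carboxylation. Its level was 133 CPM (124 to 143) in group 3b, 15.1 CPM (12.5 to 18.0) in group 3a and between 2.04 and 3.05 CPM in clusters 0, 1, 2 and 4. The 20% portion gave 88.0 CPM in group 3b and 5.55 CPM in group 3a, from 68 and 7 UMIs. MGP was thus highest where TAGLN was highest, but unlike TAGLN it was also above the other clusters in group 3a of the 80% portion. Group 3b held 66.8% of all MGP UMIs. Of the nuclei in 3b, 50.1% had an MGP UMI, against 31.9% after thinning, and the top 10% of nuclei held 59.4% of the UMIs in this group. Across the nuclei of 3b the correlation of TAGLN with MGP was 0.05 (Pearson r of log-normalised UMIs, 349 nuclei of 1 library), against 0.26 over all 6557 nuclei.

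CCN1 (ENSG00000142871, chromosome 1) and CCN2 (ENSG00000118523, chromosome 6) code for secreted matricellular proteins that bind integrins, and ANKRD1 (ENSG00000148677, chromosome 10) for an ankyrin repeat protein of the nucleus and the sarcomere. CCN1 was at 737 CPM (713 to 762) in HCC827-like cluster 4, 546 CPM in cluster 2, 253 CPM in group 3b, 171 CPM in group 3a, 140 CPM in cluster 0 and 82.4 CPM in A549-like cluster 1. No neighbours in this order had overlapping intervals in the 80% portion, and the order of the groups was the same in the 20% portion, where the intervals of group 3a and cluster 0 overlapped. The 20% portion gave CCN1 at 822 CPM in cluster 4 and 504 CPM in cluster 2.

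CCN2 did not share its highest group with CCN1. It was at 123 CPM (114 to 133) in group 3b, 89.2 CPM in cluster 2, 30.8 CPM in group 3a, 30.6 CPM in cluster 1, 26.7 CPM in cluster 0 and 24.3 CPM in cluster 4. The cluster with the most CCN1 was therefore the lowest for CCN2 in the 80% portion, with an interval that overlapped that of cluster 0. In the 20% portion cluster 4 had a higher CCN2 value than 3 other groups, at 43.2 CPM (28.7 to 62.4) from 28 UMIs. Its interval overlapped those of all 3, clusters 0 and 1 and group 3a.

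ANKRD1 was at 62.9 CPM (60.5 to 65.3) in cluster 0, 53.3 CPM (47.5 to 59.7) in group 3b, 42.9 CPM in cluster 4, 19.4 CPM in cluster 1, 18.6 CPM in cluster 2 and 5.6 CPM in group 3a. Cluster 2, where CCN1 and CCN2 were both second, was near the bottom for ANKRD1. The 20% portion had cluster 0 at 85.8 CPM, cluster 4 at 69.4 CPM, with overlapping intervals, and group 3b at 33.7 CPM. ANKRD1 was concentrated in few nuclei. In cluster 0, 30.2% of the nuclei had an ANKRD1 UMI, 16.4% after thinning, and the 10% with the most held 73.6% of the UMIs, with up to 87 UMIs in a nucleus.

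The 3 YAP-responsive genes summed to 804 CPM (779 to 830) in cluster 4 and to 654 CPM in cluster 2, mostly from CCN1. Group 3b had 429 CPM, cluster 0 had 230 CPM, group 3a had 207 CPM and cluster 1 had 132 CPM. The 20% portion gave 934 CPM in cluster 4 and 590 CPM in cluster 2. The group with the highest contractile sum and the group with the highest YAP sum were therefore not the same in either portion.

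The proximal promoters of the YAP-responsive genes CCN2 and ANKRD1 are shown because TEAD factors bind the letters GGAATG on either strand. They are the 250 bases upstream of the RefSeq start on GRCh38.p14, 5′ to 3′ in the direction of the gene, with GGAATG and the AP-1 motif (TGANTCA) in capitals. ACTA2 is shown beside them because, of the contractile genes in the RefSeq promoter table, only it had a window with GGAATG. Another ACTA2 window in that table, chr10:88991338-88991587, did not hold these letters and is not shown.
CCN2 promoter, chr6:131951373-131951622, minus strand: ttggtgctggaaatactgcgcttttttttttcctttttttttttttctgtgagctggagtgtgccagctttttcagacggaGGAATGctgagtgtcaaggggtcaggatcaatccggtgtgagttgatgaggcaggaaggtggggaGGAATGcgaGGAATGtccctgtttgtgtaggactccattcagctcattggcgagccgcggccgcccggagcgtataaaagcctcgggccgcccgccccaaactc
ANKRD1 promoter, chr10:90921088-90921337, minus strand: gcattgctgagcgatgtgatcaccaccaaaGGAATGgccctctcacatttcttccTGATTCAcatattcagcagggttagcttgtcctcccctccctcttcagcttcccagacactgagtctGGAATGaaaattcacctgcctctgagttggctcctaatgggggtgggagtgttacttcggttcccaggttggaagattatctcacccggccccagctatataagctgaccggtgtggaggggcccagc
ACTA2 promoter, chr10:88952774-88953023, minus strand: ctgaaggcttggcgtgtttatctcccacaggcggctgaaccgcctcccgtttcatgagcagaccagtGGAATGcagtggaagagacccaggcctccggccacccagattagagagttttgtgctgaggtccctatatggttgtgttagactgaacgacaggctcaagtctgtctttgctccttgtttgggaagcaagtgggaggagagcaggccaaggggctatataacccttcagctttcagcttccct
CCN2 held GGAATG 3 times, beginning 169, 104 and 95 bases upstream of the start. ANKRD1 held it 2 times, at 220 and 128 bases, with TGATTCA at 195 bases between them, and ACTA2 held it once, at 183 bases. The table held 8 promoters for 6 of the 10 genes, and 3 of the 8 held GGAATG, against 11.9% of all 35116 promoters searched. CCN1, TAGLN, MYL9 and MGP had no promoter in the table, so their promoters were not searched. The AP-1 letters were in 1 of the 8 and in 6.57% of all promoters. The strict 10-base CArG pattern had no exact match in the 8 windows, against 1.16% of all promoters. Sites that depart from it by a base, which SRF can also bind, were not searched. In the RNA table the ANKRD1 start was placed at 90921276, inside the window shown. For that start most of the window is downstream, including the GGAATG given at 128 bases. No matches of different motifs overlapped here. A match is a description of the letters and not of binding.

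Groups 3a and 3b shared RNA cluster 3 and were divided without these genes, so their levels can be set side by side. TAGLN was 30.7 times higher in 3b than in 3a (23.9 to 40.0), ANKRD1 9.52 times (6.94 to 13.3), MGP 8.85 times (7.30 to 10.8) and CCN2 4.0 times (3.45 to 4.65). These ratios were, in the 20% portion, 64.9 (24.9 to 241), 6.06 (2.56 to 16.5), 15.9 (7.29 to 40.9) and 5.42 (3.52 to 8.60). The intervals of ANKRD1 and CCN2 there reached below 4, as did that of CCN2 in the 80% portion. In the 80% portion, these 4 of the 8 genes with at least 10 CPM in either group passed 4-fold in this direction. Over all 10713 genes tested, 0.980% did. At a fold of 2, 5 of the 8 were higher in 3b, against 4.84% of all genes, and 0 were lower, against 6.54%. MYL9, TPM1 and CCN1 were higher in 3b by smaller ratios, 2.07, 1.89 and 1.48. TPM2 went the other way in the 80% portion, with a ratio of 0.838 (0.703 to 0.996), and its ratio was 1.54 in the 20% portion with an interval that included 1. The median ratio was 3.04 for the 8 genes and 0.990 for all genes tested. The direction and size of these ratios, and so the counts past a fold, are not independent of how the set was chosen. That was done with RNA levels of these nuclei in view, and cluster 3 was divided after the data had been seen. Of the 2 groups, TAGLN and ANKRD1 reached 10 CPM only in 3b, with 7.97 and 5.6 CPM in 3a. The shares of all genes are given for scale only.

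**Figure D2:**
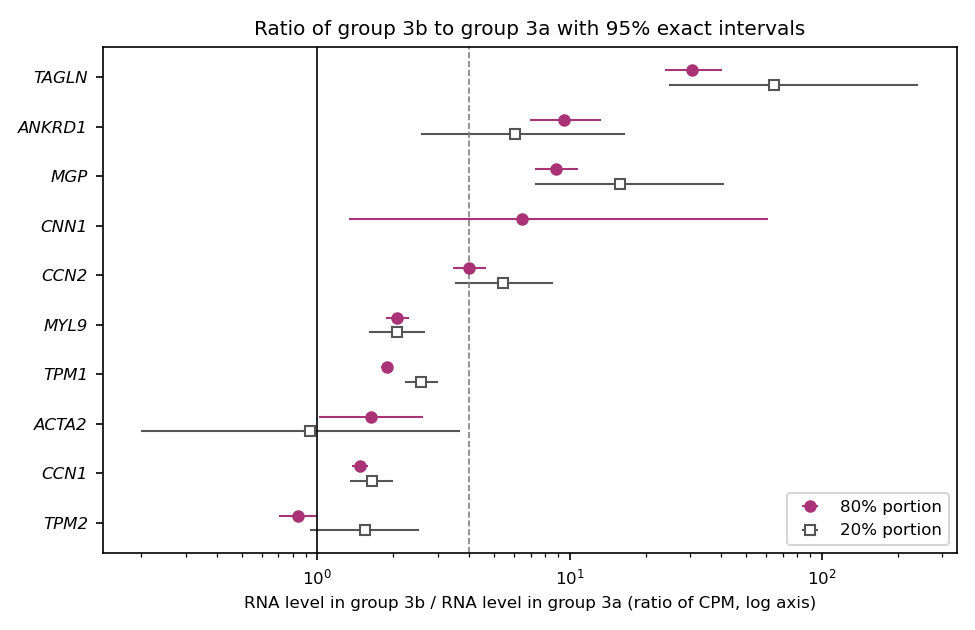
Ratio of the RNA level in group 3b to that in group 3a (log axis) for each gene, as filled circles for the 80% portion and open squares for the 20% portion, with bars for 95% exact intervals. The solid line marks a ratio of 1 and the dashed line a ratio of 4; TAGLN was at 30.7 and TPM2 at 0.838 in the 80% portion, and CNN1 had 0 UMIs in both groups of the 20% portion.

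Several markers of epithelial and mesenchymal state also differed between the same groups. EPCAM, an epithelial adhesion protein, was at 693 CPM in 3a and 36.4 CPM in 3b, and CDH1, E-cadherin, at 198 and 7.85 CPM. The splicing factor ESRP1 stood at 69.1 CPM in 3a and 0.357 CPM in 3b. Of 9 epithelial markers tested, 4 were at least 4-fold lower in 3b and 0 were 4-fold higher, against 2.0% of all genes that were 4-fold lower. The keratins KRT8 (871 and 1334 CPM) and KRT18 (1442 and 1759 CPM) had higher values in 3b than in 3a. Vimentin (VIM) was at 1648 CPM in 3a and 4737 CPM in 3b, and ZEB1, a repressor of epithelial genes, at 47.2 and 131 CPM. Of 5 mesenchymal markers tested, 0 were 4-fold higher in 3b, against 0.980% of all genes, with a median ratio of 2.77. SNAI2 was nearly level, at 17.1 CPM in 3a and 19.3 CPM in 3b, and CDH2 was scarce, at 0.996 and 1.43 CPM. Of the 12 fibroblast and smooth muscle markers, which summed to 53.7 CPM in 3a and 234 CPM in 3b, the collagens COL1A1 (37.4 and 142 CPM) and COL1A2 (6.23 and 74.9 CPM) made up most. COL3A1 and DCN, which define fibroblasts, were at 0 in both groups, and DES, MYOCD and LMOD1 were under 1 CPM. PDGFRB, a receptor of pericytes and fibroblasts, was at 0.249 CPM in 3a and 6.24 CPM in 3b. The 6 endothelial and immune markers summed to 37.4 CPM in 3a and 51.0 CPM in 3b, mostly from CD68 at 35.5 and 35.3 CPM. Of the 2 tested, 1 was 4-fold higher in 3b, against 0.980% of all genes. It was the endothelial adhesion protein PECAM1, at 1.12 CPM in 3a and 15.3 CPM in 3b. PTPRC, which defines immune cells, was under 1 CPM in both. Doublet calls made up 9.95% of 3a and 6.30% of 3b. The part of these markers and of doublets in the differences of the contractile and YAP-responsive genes was not tested.

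The contractile and SRF-responsive list held 28 other genes. All 28 were measured, and 24 reached 10 CPM in some cluster. Of these, 1 was restricted, against 6.45% of all genes. It was FHL1, a LIM protein of muscle, with 23.3 CPM in cluster 2 and a ratio of 4.36. Of the 23 tested between 3b and 3a, 0 were 4-fold higher and 0 were 4-fold lower, against 0.980% and 2.0% of all genes. The 23 had a median ratio of 0.964. Of the 4 contractile genes of the set tested in the same way, 1 was 4-fold higher, TAGLN. SMTN, smoothelin, was at 28.3 CPM in cluster 3 with a ratio of 2.62 to the next cluster, ACTN1, alpha-actinin, at 637 CPM in cluster 3 with a ratio of 2.08, and MYH10, a non-muscle myosin heavy chain, at 233 CPM in cluster 2 with a ratio of 1.90. In 3b and 3a, ACTN1 was at 948 and 453 CPM, TPM4 at 673 and 310 CPM and SMTN at 42.3 and 20.5 CPM. Their ratios, 2.09, 2.17 and 2.06, were close to the 2.07 of MYL9. FHL2 was among the genes lower in 3b, at 19.4 against 70.0 CPM. Of the cytoplasmic actins, ACTB was nearly level, at 5460 and 5392 CPM, and ACTG1 was lower in 3b, at 1650 against 2013 CPM. ACTG2, smooth muscle gamma-actin, stayed under 10 CPM, at 4.82 CPM in 3b and 0.249 CPM in 3a.

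Of the 9 regulators of SRF, 8 reached 10 CPM and 0 were restricted, against 6.45% of all genes. Cluster 2, with the highest contractile sum, was the highest for 3 of the 8, SRF, MRTFA and the kinase ROCK1. SRF itself lay between 5.90 and 14.5 CPM over the 5 clusters, MRTFA between 54.5 CPM in cluster 0 and 168 CPM in cluster 2, and MRTFB between 76.5 CPM in cluster 2 and 157 CPM in cluster 0. The cofactors were thus highest in opposite clusters. MYOCD, the smooth muscle cofactor of SRF, was under 10 CPM everywhere, with 6.51 CPM in cluster 1 and at most 0.472 CPM in the other clusters.

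Among 23 further YAP target genes, 22 reached 10 CPM. F3, tissue factor, was at 764 CPM in cluster 4, where CCN1 was also highest, with a ratio of 3.997 to cluster 0 that fell just short of the limit. CCDC80, a matrix protein, was at 233 CPM in cluster 2 with a ratio of 3.83, and ASAP1, a regulator of Arf GTPases, at 759 CPM in cluster 4 with a ratio of 2.17. Of the 21 tested between 3b and 3a, 0 were 4-fold higher or lower, against 0.980% and 2.0% of all genes. The 21 had a median ratio of 1.03. Each cluster was the highest for between 2 and 6 of the 22 genes.

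Of 17 Hippo pathway genes and YAP partners, 16 reached 10 CPM and 0 were restricted, against 6.45% of all genes. YAP1 lay between 103 CPM in A549-like cluster 1 and 219 CPM in cluster 0, and WWTR1 between 156 CPM in cluster 2 and 332 CPM in cluster 0. TEAD1 lay between 187 CPM in cluster 4 and 412 CPM in cluster 1. HCC827-like cluster 4 thus had, of the 5 clusters, the highest YAP sum together with the lowest TEAD1, while TEAD4 was highest there, at 34.6 CPM. NF2, which codes for the Hippo activator merlin, was at 125 CPM in cluster 3 with a ratio of 2.72, TEAD2 at 18.0 CPM in cluster 2 with a ratio of 1.96, and the kinase STK4 at 135 CPM in cluster 2 with a ratio of 1.90. VGLL4, a repressor of TEAD, was at 124 CPM in cluster 2 with a ratio of 1.37, and between 3b and 3a it was at 64.4 and 106 CPM.

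All 16 genes of the TGF-beta and BMP pathway, which also act on contractile genes, reached 10 CPM and 0 were restricted, against 6.45% of all genes. ID3, a target of BMP signalling, was highest at 989 CPM in cluster 2 with a ratio of 2.65, and LTBP2 at 36.3 CPM in cluster 0 with a ratio of 2.63. Of the 16 genes, 1 was 4-fold higher in 3b than in 3a, against 0.980% of all genes. It was BMP4, at 17.8 against 4.23 CPM. Of 12 matrix genes around MGP, 9 reached 10 CPM and 0 were restricted, against the same 6.45% of all genes. COL1A1 had the largest ratio, 3.02, at 242 CPM in cluster 0, and SPARC was at 266 CPM in cluster 2 with a ratio of 1.70. GGCX, the enzyme that carboxylates MGP, was present in all 5 clusters, between 23.1 and 57.3 CPM. So was VKORC1, an enzyme of vitamin K recycling, between 71.7 and 112 CPM.

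Over single nuclei, the pairs of genes that went together were partly those that shared a group. Over all 6557 nuclei of the 80% portion, MYL9 and TPM2 had a Pearson r of 0.50, MYL9 and CCN1 of 0.41 and CCN1 and CCN2 of 0.35. These values are descriptions, since the nuclei share a library, differ in depth and belong to groups with different means. Within groups the MYL9 and CCN1 values were lower, from 0.07 in cluster 4 to 0.17 in cluster 1. CCN1 and CCN2 stayed between 0.15 in cluster 1 and 0.38 in group 3b. MYL9 and TPM2 lay between 0.11 in cluster 1 and 0.25 in cluster 2. In group 3b, TAGLN had an r of 0.44 with MYL9 and 0.37 with TPM1, against 0.21 and 0.12 in group 3a and 0.18 and 0.05 in cluster 2, groups in which TAGLN was sparse.

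**Figure D3:**
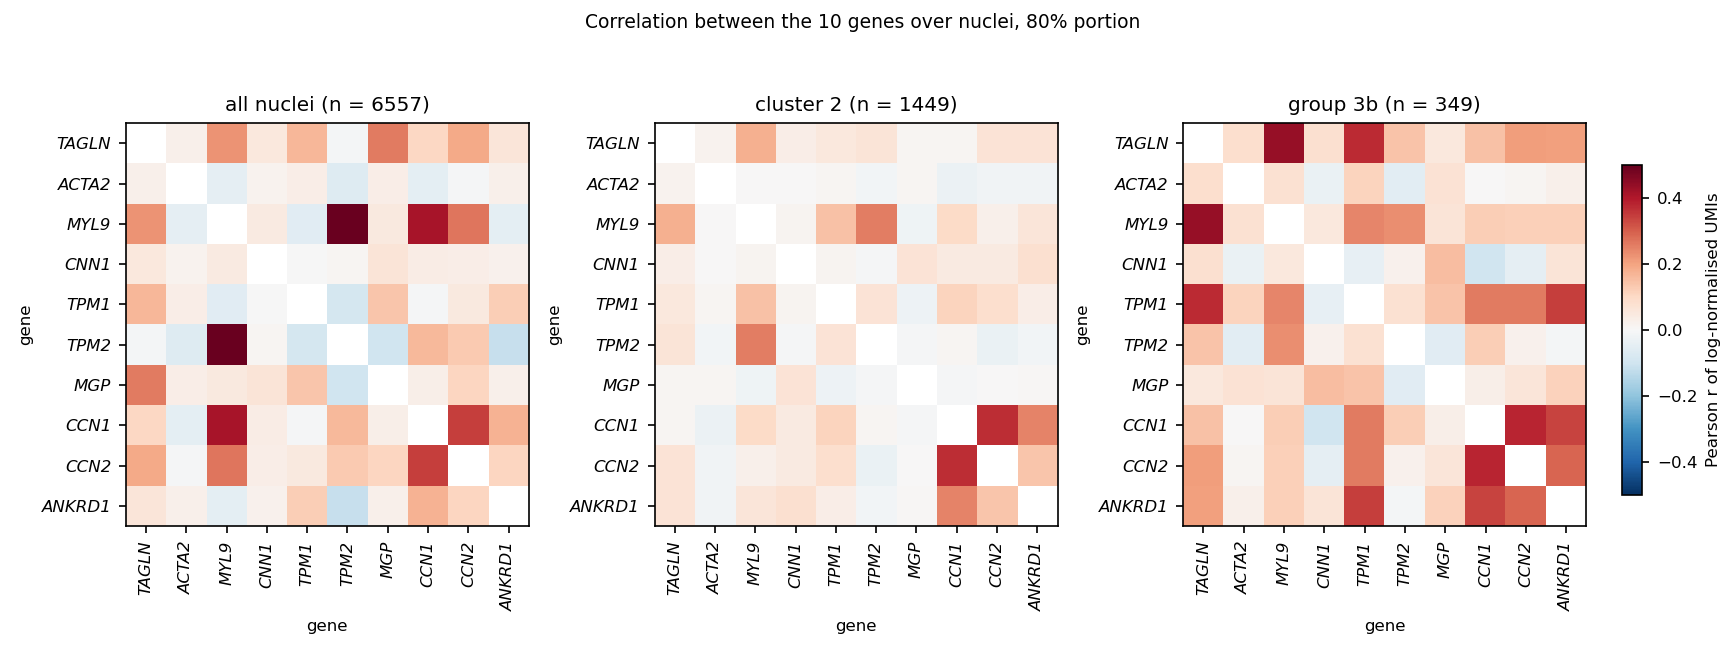
Pearson r between the 10 genes (colour) over all 6557 nuclei, over the 1449 nuclei of cluster 2 and over the 349 nuclei of group 3b of the 80% portion. MYL9 and TPM2 had the highest value over all nuclei, 0.50, and TAGLN and MYL9 the highest in group 3b, 0.44.

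Over all nuclei, the genes most like the contractile sum were IGF1R (r of 0.46), SRGN, ITPR2, LDHB and MAGEA4 (0.44), all 5 of which were highest in cluster 2. Over the 1449 nuclei of cluster 2 they were ACTB (0.35), CFL1, ACTG1 and MYL6, followed by ANXA3 (0.20). For the YAP sum over all nuclei they were CPA4 (0.39), NEXN, PHLDB2, PTPRG and GREB1L (0.38). Over the 328 nuclei of cluster 4 they were F3 (0.48), FRMD6, TRIO, RBMS3 and NEXN (0.43), of which F3 and RBMS3 stood in the list of YAP targets. Group 3b was examined in the same way after the data had been seen, and there CALD1 (0.42), TPM4, ACTN1, KRT7 and TGFBI (0.39) were most like the contractile sum and F3 (0.40) most like the YAP sum.

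Chromatin was counted separately from RNA in the same nuclei, in peaks called by the authors on the whole portion. In the 80% portion 144 peaks lay within 50 kb of a start of the 10 genes, from 8 at TAGLN to 21 at CNN1, and 59 reached 10 CPM (here per 1000000 ATAC counts) in some RNA cluster. Of these, 3 were restricted to a cluster by the rule used for RNA, against 9.10% of all 44879 peaks that reached 10 CPM. With cluster 3 divided, 3 of 65 were restricted, against 7.78% of all peaks. Of the 17 peaks within 1 kb of a start, 10 reached 10 CPM and 0 were restricted. ATAC intervals below take 2 counts as a fragment, since 90.1% of nonzero values were even. DNA copy number was not measured, so a change in copies of a locus and a change in its openness cannot be told apart.

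MYL9 and TPM2 were most open where their RNA was highest. The peaks at the MYL9 start summed to 37.2 CPM (31.8 to 43.1) in cluster 2, 11.1 CPM in group 3a, 10.1 CPM in group 3b, 8.52 CPM in cluster 4, 7.22 CPM in cluster 0 and 4.07 CPM in cluster 1. All 5 peaks near MYL9 that reached 10 CPM in some group, among them 3 at TGIF2, were highest in cluster 2, as were 18.4% of all peaks. Cluster 2 also had 4.98% of its ATAC counts on chromosome 20, against 2.55% to 3.62% in the other groups. The peaks at the TPM2 start summed to 51.8 CPM (45.5 to 58.8) in cluster 2, 32.4 CPM (27.8 to 37.4) in cluster 1 and between 18.2 and 22.2 CPM in the other 4 groups, so the leading clusters were those of its RNA. That difference lay mostly in the peak over the start on chromosome 9 from 35689596 to 35690376, with 29.3 CPM in cluster 2, 17.3 CPM in cluster 1 and at most 3.87 CPM elsewhere.

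TPM1 was not most open where its RNA was highest, and at TAGLN the most open group was not clear. TPM1 has upstream and downstream starts, and the peaks at them summed to 99.3 CPM (91.3 to 108) in A549-like cluster 1 and to 51.4 CPM (41.7 to 62.7) in group 3b, which had the most TPM1 RNA. Cluster 1 also had 3.93% of its ATAC counts on chromosome 15, against 2.45% in group 3b and 2.38% to 3.07% in the other groups. The part of this chromosome-wide difference in the gap at TPM1 was not tested. The peak at the downstream starts, which also covers a start of the antisense gene TPM1-AS, was at 79.6 CPM in cluster 1 and 29.4 CPM in group 3b. The peak at the upstream start was at 19.7 CPM in cluster 1 and 22.0 CPM in group 3b. At TAGLN the peaks summed to 13.9 CPM (10.7 to 17.7) in cluster 2, 12.7 CPM (8.14 to 18.9) in group 3b and 3.29 CPM (1.54 to 6.15) in group 3a. Openness at TAGLN in 3b and in cluster 2 thus had overlapping intervals, while its RNA was 9.79 times higher in 3b. The TAGLN start of the 20% portion, where it had only 1 peak, was at 15.6 CPM in 3b and 10.7 CPM in cluster 2, with no interval calculated.

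At MGP the 2 peaks near the start were weak in every group. They summed to 9.0 CPM (5.25 to 14.4) in group 3b and 6.06 CPM (3.56 to 9.64) in group 3a. Cluster 4 had 4.64 CPM (2.12 to 8.82), cluster 0 had 3.90 CPM (2.95 to 5.05), cluster 2 had 1.39 CPM and cluster 1 had 0.177 CPM. The interval of cluster 4 overlapped those of 3b and 3a, and that of cluster 0 overlapped that of 3a. The peak over the MGP start alone had 6.36 CPM in 3b, 2.94 CPM in 3a and at most 0.992 CPM elsewhere, so 3b and 3a led as in the RNA, without reaching 10 CPM. At ACTA2 the peaks at the start summed to at most 2.46 CPM in every group, and at CNN1 the start had 8.21 CPM (4.64 to 13.4) in 3b and 5.68 CPM in cluster 2.

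Among the YAP-responsive genes, the CCN1 start was at 90.3 CPM (81.9 to 99.3) in cluster 2 and at 43.1 CPM (34.3 to 53.4) in cluster 4, although CCN1 RNA was higher in cluster 4. The other groups lay between 19.7 and 31.0 CPM. The 20% portion gave 85.4 and 43.1 CPM. Over the 12 peaks within 50 kb of CCN1 that reached 10 CPM, 6 were highest in cluster 2 and 6 in cluster 4, against 18.4% and 14.2% of all peaks. Chromosome 1 held 11.6% of the ATAC counts of cluster 2 and 10.5% of those of cluster 4, against 8.64% to 10.1% in the other groups. The part of this chromosome-wide difference in the levels near CCN1 was not tested. The summed level of all 18 peaks there was 396 CPM in cluster 2, 420 CPM in cluster 4 and between 120.4 and 226 CPM elsewhere. The start of CCN2 was at 36.3 CPM (31.0 to 42.2) in cluster 2 and 26.5 CPM (19.7 to 34.9) in 3b, with overlapping intervals. ANKRD1 was at 36.5 CPM (28.4 to 46.3) in 3b, 17.0 CPM (12.6 to 22.4) in 3a and 22.7 CPM in cluster 0, which had the most ANKRD1 RNA. Over the 7 genes with enough counts at the start and in RNA, 2 had both highest in the same of the 6 groups, against 48.8% of all genes. TAGLN and CCN2 were not among the 2, although their ATAC intervals in cluster 2 and 3b overlapped. In the 20% portion both starts had their highest value in 3b, as did the RNA, with CCN2 at 35.8 CPM in 3b and 30.8 CPM in cluster 2. Group 3b held only 62 nuclei there, and no interval was calculated for ATAC values of the 20% portion. The order of 3b and cluster 2 at these starts is therefore not settled. TPM1, CCN1 and ANKRD1 differed between start and RNA in that portion too.

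**Figure D4:**
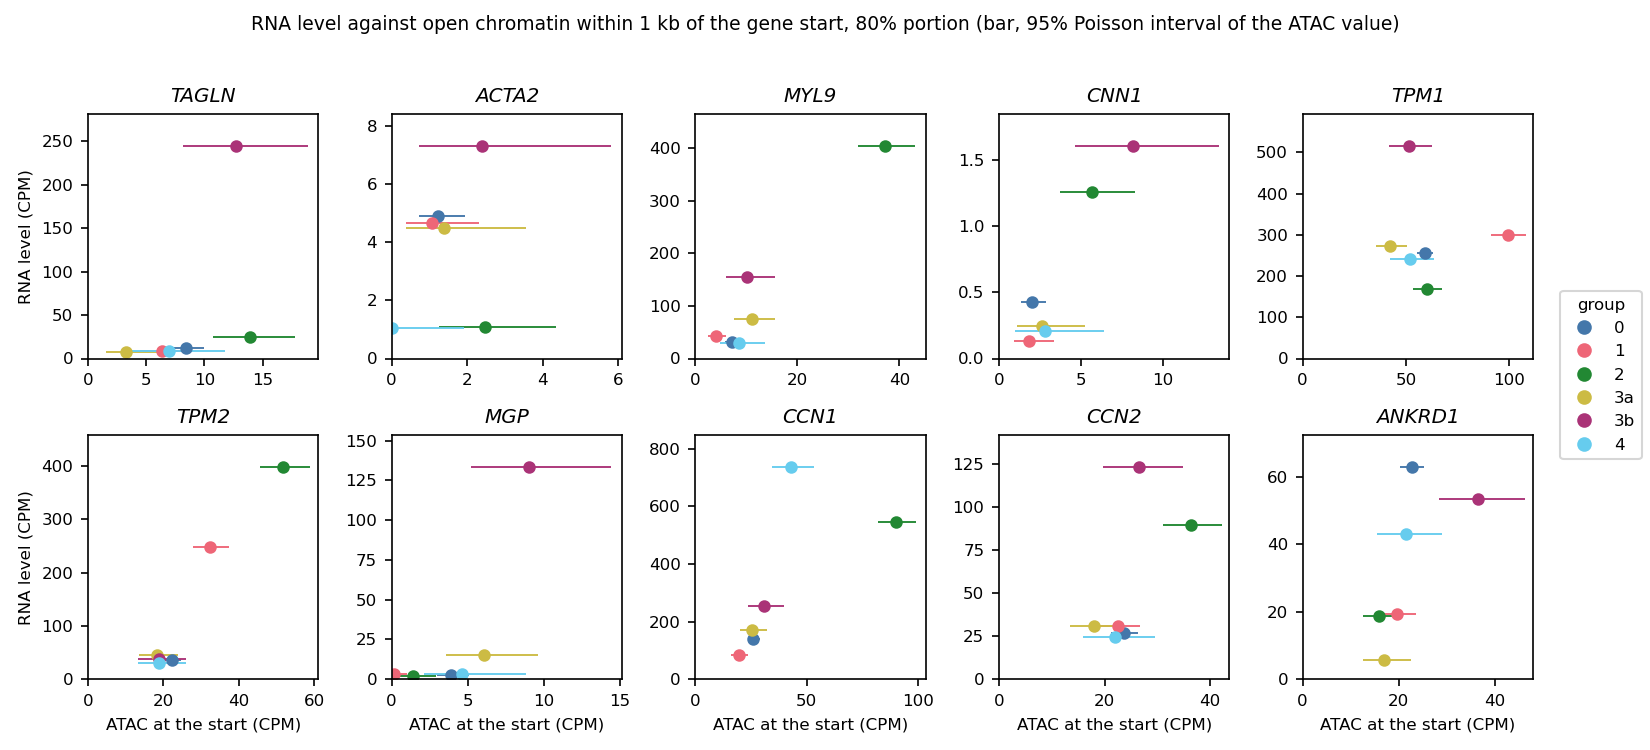
RNA level (CPM) against the summed ATAC level of peaks within 1 kb of the start (CPM) for each gene, with a point for each nucleus group of the 80% portion and bars for the 95% Poisson interval of the ATAC level. Cluster 2 was highest on both axes for MYL9 and TPM2, while for CCN1 cluster 2 had 90.3 CPM and cluster 4 had 43.1 CPM of ATAC, with 546 and 737 CPM of RNA.

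The 3 restricted peaks are shown because they had the sharpest difference between clusters among the peaks near these genes that reached 10 CPM. Each line gives the central 300 bases on hg38, plus strand, 5′ to 3′, with GGAATG on either strand, the AP-1 letters and the CArG box in capitals.
TPM1 intronic peak, chr15:63051287-63051586: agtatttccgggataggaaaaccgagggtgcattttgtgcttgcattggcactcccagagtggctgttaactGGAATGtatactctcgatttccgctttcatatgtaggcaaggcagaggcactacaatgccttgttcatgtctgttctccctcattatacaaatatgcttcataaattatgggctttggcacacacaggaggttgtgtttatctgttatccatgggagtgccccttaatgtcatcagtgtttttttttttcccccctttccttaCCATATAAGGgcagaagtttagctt
CCN1 upstream peak, chr1:85573426-85573725: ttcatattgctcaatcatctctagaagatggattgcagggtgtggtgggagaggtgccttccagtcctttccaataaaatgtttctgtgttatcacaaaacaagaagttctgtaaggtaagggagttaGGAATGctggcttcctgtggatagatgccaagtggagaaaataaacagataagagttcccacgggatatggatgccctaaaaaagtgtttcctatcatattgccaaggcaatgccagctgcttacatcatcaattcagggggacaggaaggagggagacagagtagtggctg
MGP upstream peak, chr12:14932220-14932519: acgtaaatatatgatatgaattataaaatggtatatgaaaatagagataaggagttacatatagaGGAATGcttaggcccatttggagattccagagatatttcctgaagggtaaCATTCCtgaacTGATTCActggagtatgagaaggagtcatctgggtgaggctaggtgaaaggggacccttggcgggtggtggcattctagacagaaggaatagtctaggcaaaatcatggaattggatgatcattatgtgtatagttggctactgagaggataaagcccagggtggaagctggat
The TPM1 peak spanned 63051006 to 63051868 on chromosome 15, in an intron 2.18 kb downstream of the nearest start. It was at 31.1 CPM in A549-like cluster 1 and at most 3.64 CPM in the other clusters, a ratio of 8.55, and at 29.7 CPM against at most 8.79 CPM in the 20% portion. It held GGAATG and, 10 bases long, a CArG box. TPM1 RNA was not highest in that cluster.

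The CCN1 peak, on chromosome 1 from 85573119 to 85574033, lay 6.73 kb upstream of CCN1 in an intron of DDAH1 and within 1 kb of a DDAH1 start. It was at 14.5 CPM in cluster 2 and at most 3.10 CPM elsewhere, a ratio of 4.67, and held GGAATG once. The MGP peak, on chromosome 12 from 14931935 to 14932805, lay 46.1 kb upstream of MGP in an intron of ERP27, near a start of that gene. It was at 10.6 CPM in HCC827-like cluster 4 and at most 1.61 CPM elsewhere, a ratio of 6.59, in a cluster with 2.90 CPM of MGP RNA. Cluster 4 also had 6.21% of its ATAC counts on chromosome 12, against 3.73% to 5.47% in the other groups. ERP27 RNA was highest in the same cluster, at 6.64 CPM. The window of the MGP peak held GGAATG on each strand and the AP-1 letters TGATTCA. The CCN1 and MGP peaks had no overlapping peak in the 20% portion. All 3 peaks held GGAATG in their central 300 bases, as did 39 of the 144 peaks near these genes (27.1%) and 21.6% of all peaks searched. The CArG box was in 7 of the 144 (4.86%) and in 1.56% of all peaks, and the AP-1 letters were in 27.8% and 33.8%.

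Around CNN1 nearly the whole neighbourhood was most open in group 3b, although CNN1 RNA was scarce. Of the 13 peaks within 50 kb that reached 10 CPM, 12 were highest in 3b, as were 16.1% of all peaks. The summed level of the 21 peaks there was 655 CPM in 3b, 313 CPM in 3a, 297 CPM in cluster 4, 283 CPM in cluster 2, 240.5 CPM in cluster 0 and 181 CPM in cluster 1. A wide gap was seen at a peak in an intron of ZNF627, 29.1 kb downstream of the CNN1 start, on chromosome 19 from 11567951 to 11568841. It was at 71.8 CPM in 3b, 23.9 CPM in 3a, 15.5 CPM in cluster 4 and at most 2.91 CPM elsewhere, and at 77.8 CPM in 3b and 24.2 CPM in 3a in the 20% portion. The peaks at the starts of the neighbouring genes ECSIT, ZNF653 and ELOF1, which were open in all 6 groups, were also highest in 3b, by 1.59 to 1.74 times the next group. Chromosome 19 as a whole held 7.89% of the ATAC counts of 3b and 7.16% of those of 3a, with 5.28% to 7.84% in the other clusters.

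**Figure D5:**
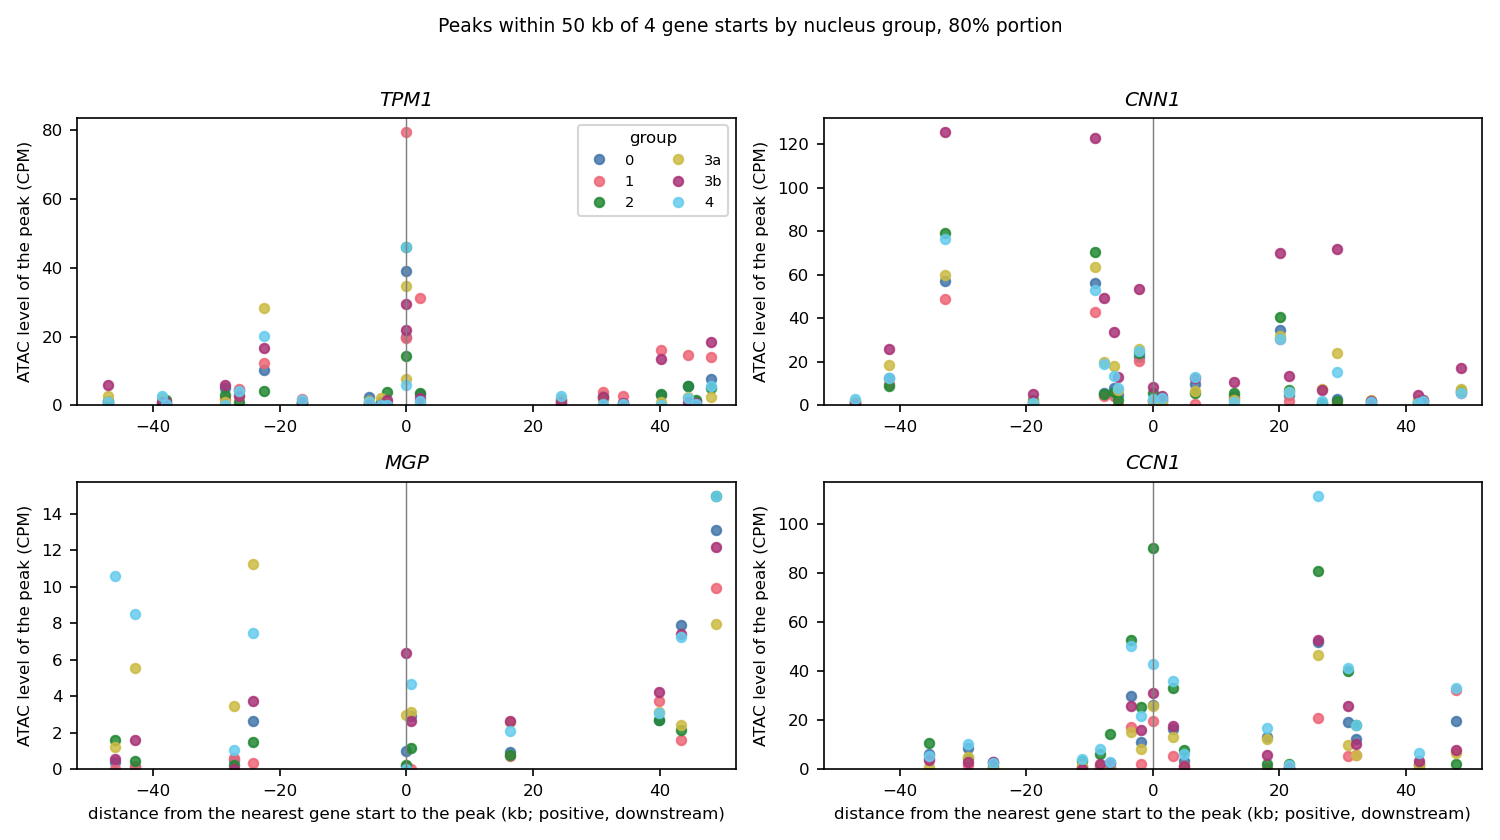
ATAC level (CPM) of each peak within 50 kb of the starts of TPM1, CNN1, MGP and CCN1 against its distance from the nearest start (kb), coloured by nucleus group, 80% portion. At CNN1 group 3b was highest at 12 of the 13 peaks that reached 10 CPM; at TPM1 the peak at 2.18 kb was at 31.1 CPM in cluster 1.

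Several of these genes overlap others in GENCODE, namely TPM1 with TPM1-AS, MYL9 with DLGAP4-AS1, MGP with C12orf60, CCN2 with LINC01013 and ACTA2 with STAMBPL1. The strand setting of the counting was not found in the labels, files or methods, so reads of such partners may be included in the RNA levels of these genes. UMIs of different genes were not set per length, so statements on which genes make up a sum, or on scarce genes, refer to UMIs.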

How the data were processed

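Nuclei from a mixture of 5 lung adenocarcinoma lines were assayed jointly for RNA and ATAC with the 10x Multiome kit. The authors deposited, for each portion, a filtered matrix of raw counts per barcode (UMIs per gene and ATAC counts per peak), made with Cell Ranger ARC 2.0.0 on GRCh38, and these counts were used with no normalisation by the authors. Long-read files and the authors' line labels were not used here. The 80% portion held a median of 13306 UMIs and 8784 ATAC counts per nucleus.

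The 10 genes and all gene lists were chosen with earlier results of these data known. Nuclei were log-normalised and clustered in Seurat 5.3.0 (2000 variable genes without listed genes, 30 principal components, 20 neighbours, the lowest Louvain resolution giving at least 5 clusters of at least 1% of nuclei). ATAC clusters used TF-IDF and components 2 to 30. Division of cluster 3 into 3a and 3b was chosen after seeing the data. Counts were summed per group and given as CPM with exact Poisson intervals. Scrublet called 385 doublets (5.87%), which were kept in the values reported. Nuclei of the 20% portion were compared after assignment over 1999 genes, a step that returned 98.4% of nuclei of the 80% portion to their own group. The group means came from those same nuclei of the 80% portion, so this share does not measure accuracy in the 20% portion. With 1 library per portion and assay no test of a difference was possible, and no p-value is given. Named genes were the 10 genes, up to 4 genes of each list with the largest ratio of the highest to the next cluster, YAP1, WWTR1, TEAD1, SRF, MRTFA, MRTFB, and the 5 genes most correlated with each sum over all nuclei and in the cluster where the sum was highest. A result on a listed gene is not reported here. Other list genes given by name were chosen after their values were seen. Motifs were searched on both strands in RefSeq promoters and in the central 300 bases of peaks. The fold and interval steps were tested on simulated counts, and the other steps were not. Alternatives covered the clustering, doublets, normalisation, folds, minimum level and portion. Python 3.11.15, R 4.3.3, pandas 2.3.3, scipy 1.17.1 and GENCODE v44 were used.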

Additional observations from a re-analysis of the deposited data

How the results depend on the processing

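Over 14 alternative settings, 131 of 168 values stayed within their counting interval or within 1.5 times the main count and 37 moved. The number of the 10 genes restricted to a cluster was 1 (MGP) and became 2, with TAGLN added, with listed genes kept in the clustering, with ATAC clusters, with doublets removed, with the mean of per-nucleus CPM, and with cluster 3 divided, a setting added after seeing the data. It was 3 at a fold of 2. The highest contractile sum, 998 CPM, was 980 CPM with ATAC clusters, 1022 CPM with median-of-ratios size factors and 965 CPM in the 20% portion. The highest YAP sum, 804 CPM, was 771 CPM with ATAC clusters, 834 CPM with doublets removed and 934 CPM in the 20% portion. Restricted genes numbered 802 in all, 1991 at a fold of 2 and 5272 with no minimum CPM. Restricted peaks near the 10 genes numbered 3, then 10 at a fold of 2 and 12 with no minimum, and over all peaks 4083, 10527 and 13533. The fold and the minimum act on these counts by construction, and the cause of the other changes was not tested. Of the 10 settings that could change it, the highest cluster was the same for 10 of 10 genes under 8, and for 8 of 10 under the ATAC clusters and under the division of cluster 3, where CCN2 and CNN1 moved from cluster 2 to the nuclei of cluster 3.

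Each portion held 1 library per assay, so the intervals cover counting error only and say nothing of culture-to-culture variation. The portions came from a single suspension and are not biological replicates. ACTA2 and CNN1, with 385 and 56 UMIs, were too sparse to order most groups, and line identity of clusters 0, 2, 3a and 3b was not tested. No paired test across samples was possible because each portion had a single library per assay, and no test was run. RNA and ATAC levels of the same nuclei were compared as sums per group.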
